A study of Homo sapiens with 6 samples.

Results

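The genes described here make up the glucose-sensing MondoA and TXNIP axis. They are the transcription factors MLXIP (MondoA), MLXIPL (ChREBP) and MLX, and the alpha-arrestins TXNIP, ARRDC4, ARRDC3 and ARRDC2. They were picked by name: every row of the tables listed under 1 of these 7 symbols was taken. The 7 symbols fill 8 of the 38648 rows of the deposited tables, since MLXIP is listed at 2 places, and all 8 rows had enough counts to be tested among 15381 genes. The 6 RNA sequencing libraries came from HPC, a human podocyte line that the labels give as wild type (WT). Podocytes are the epithelial cells that wrap the filtering capillaries of the kidney. In 3 libraries the cells carried the NC lentivirus, the control, and in the other 3 a lentivirus for overexpression of PRDM16, a zinc-finger transcriptional regulator best known from brown fat. All 6 libraries came from cells in high glucose, with 24 h in their titles, so that NC and PRDM16 cells share the glucose exposure. Cultures in normal glucose were not analysed here, and every level below is a level in high glucose. Neither the glucose concentration nor the promoter that drives PRDM16 is stated in the sources used here.

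MondoA and ChREBP are basic helix-loop-helix leucine zipper proteins that respond to glucose 6-phosphate, the first product made from glucose inside the cell. Each pairs with MLX and binds carbohydrate response elements, which are pairs of E-box-like sites spaced 5 bases apart. TXNIP and ARRDC4 are the classic MondoA targets: both proteins lower glucose uptake, and TXNIP also binds thioredoxin. In diabetic kidney, TXNIP is studied as a gene induced by high glucose and linked to oxidative stress.

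The promoter sequences below show the pair of E-box-like sites in front of TXNIP and the single E-boxes in front of ARRDC4 and MLX, where no pair was found. The windows are from RefSeq (GRCh38.p14), read 5′ to 3′ on the strand of the gene, and lie wholly before the transcript start. TXNIP is shown from 128 to 32 bases before its start (chr1:145996611-145996707, minus strand), ARRDC4 from 250 to 165 bases before (chr15:97960453-97960538, plus strand), and MLX from 90 to 5 bases before (chr17:42567010-42567095, plus strand). Capitals mark the direct pair of E-box-like sites in TXNIP and the E-box CACGTG in the others.
TXNIP: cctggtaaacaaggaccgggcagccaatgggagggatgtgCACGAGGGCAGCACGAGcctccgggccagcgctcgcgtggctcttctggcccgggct
ARRDC4: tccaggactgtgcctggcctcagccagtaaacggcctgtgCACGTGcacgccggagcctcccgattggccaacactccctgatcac
MLX: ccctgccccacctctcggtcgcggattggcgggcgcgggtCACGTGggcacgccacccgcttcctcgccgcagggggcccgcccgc

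All 7 genes matched a RefSeq promoter, with 10 start sites in all, each covered by 300 bases (250 before the start and 50 after). Both strands were searched for 4 motifs, and the same search was run on 35116 promoters of this length. The direct pair, CACGNG followed by any 5 bases and a further CACGNG, occurred in 20 of these promoters (0.057%), 1 of them that of TXNIP, where it spans positions -88 to -72 from the start. Its letters follow the known element of TXNIP, so the match there is no finding. The inverted pair, CACGNG followed by any 5 bases and CNCGTG, occurred in 8 promoters (0.0228%) and in none of the 7 genes. The E-box CACGTG occurred in 2548 promoters (7.26%). Among the 7 genes it was found in ARRDC4, at -210 to -205, and in MLX, at -50 to -45. CCAAT, the letters bound by NF-Y, was added after the sequences had been seen and occurred in 12155 promoters (34.6%). It lay at -105 to -101 in TXNIP, with a further copy on the other strand at -140 to -136. ARRDC4 had 3 copies, and MLX, MLXIP, ARRDC3 and ARRDC2 had 1 each. None of the 4 motifs was found in the 300 bases of MLXIPL. A match is a description of these letters and not evidence that a factor binds there.

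Totals were between 20147135 and 41280350 counts per library, so that 3 counts stand for 0.0727 to 0.149 CPM (counts per 1000000 counts). PRDM16 had 0 counts in each NC library and 11, 18 and 24 counts in the PRDM16 libraries. The exact two-sided permutation test gave p = 0.1, the smallest that 3 against 3 libraries allow, and edgeR gave an adjusted p of 7.7e-04. Of the podocyte markers, NPHS1 (nephrin) had 0 to 3 counts and WT1 had 1 to 4 counts per library. PODXL (podocalyxin) had 53.7 ± 5.75 TPM (transcripts per 1000000; SD, n = 6) and the parietal and tubule marker PAX8 had 164 ± 15.9 TPM. In plain CPM, the summed level of the 9 podocyte markers was 332 to 431 CPM in NC and 281 to 319 CPM in PRDM16 libraries, with 4 of 9 markers at 10 or more counts in every library and 1 at 0 in all. These sums rest mainly on PODXL and on CD2AP, an adaptor of the slit diaphragm. In TMM-scaled CPM, CD2AP had 184, 260 and 176 CPM in NC libraries 1 to 3. Its means were 206 ± 46.5 CPM in NC and 161 ± 16.1 CPM in PRDM16 libraries (adjusted p = 0.298, edgeR). Its lowest NC library, at 175.6 CPM, stood just above the highest PRDM16 library, at 175.2 CPM. SYNPO had a log2 fold change of 0.13. In plain CPM the median log2 difference of all tested genes was -0.08. In TMM-scaled CPM the groups did not overlap for 21% of tested genes. The 10 parietal and tubule markers summed to 2760 to 2927 CPM in NC and 2941 to 3081 CPM in PRDM16 libraries, with 7 at 10 or more counts in every library and 2 at 0. The 8 endothelial and mesangial markers summed to 83.3 to 113 and 92.8 to 102 CPM, with 3 at 10 or more counts in every library and 1 at 0. Their part in the results below was not tested. These are bulk libraries, in which fewer cells of a type and less RNA per cell cannot be told apart. The labels do not say whether the libraries came from separate cultures, so the p-values reflect the spread among these 6 libraries alone, which may be technical.

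TXNIP was by far the most abundant of the 8 rows per unit of length, followed by MLX and ARRDC2. TPM, which scales counts to gene length and to the library, allows levels of different genes to be compared. TXNIP stood at 449, 377 and 359 TPM in NC libraries 1 to 3 and at 396, 365 and 382 TPM in PRDM16 libraries 1 to 3. Its mean of 388 ± 32.6 TPM (SD, n = 6) was above that of 97.4% of tested genes. MLX, the shared dimerization partner, had 71.8, 60.7 and 65.4 TPM in NC and 64.9, 66.2 and 67.4 TPM in PRDM16 libraries. Its mean of 66.1 ± 3.60 TPM was above 83.2% of tested genes. ARRDC2 had 30.9, 27.6 and 28.6 TPM in NC and 31.3, 28.2 and 30.3 TPM in PRDM16 libraries, with a mean of 29.5 ± 1.52 TPM (above 68.6% of tested genes). The ranges of these genes over the 6 libraries did not overlap: the lowest TXNIP value of 359 TPM lay above the highest MLX value of 71.8 TPM, and the lowest ARRDC2 value of 27.6 TPM above the highest ARRDC3 value of 9.30 TPM.

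The other rows were low and lay close together. ARRDC3, an adaptor that brings ubiquitin ligases to membrane receptors, had 6.15, 9.30 and 5.96 TPM in NC and 5.87, 5.54 and 7.39 TPM in PRDM16 libraries. MLXIP at its place on chromosome 12 had 7.84, 6.43 and 7.59 TPM in NC and 5.20, 6.64 and 6.18 TPM in PRDM16 libraries. Their means of 6.70 ± 1.42 and 6.65 ± 0.968 TPM did not differ beyond their spread, and ARRDC3 was the higher in 3 of 6 libraries. This MLXIP level and its rank leave out the scaffold listing of MLXIP, which took 10.7% to 30.4% of the MLXIP counts per library. ARRDC4 had 6.14, 6.03 and 4.29 TPM in NC and 4.02, 3.82 and 4.80 TPM in PRDM16 libraries. Its mean was 4.85 ± 1.01 TPM. It was below MLXIP in 6 of 6 libraries, although the ranges overlapped. MLXIPL, the ChREBP gene that dominates in liver, was lowest, with 2.01, 1.67 and 1.19 TPM in NC and 1.52, 1.51 and 1.61 TPM in PRDM16 libraries. The mean for MLXIPL was 1.58 ± 0.266 TPM, from 37 to 98 counts per library, above 18.3% of tested genes. The scaffold listing of MLXIP, at 2.36 ± 1.36 TPM, was above MLXIPL in 4 of 6 libraries, and their ranges overlapped. The order of the 8 rows was the same when FPKM or length-scaled CPM replaced TPM.

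**Figure D1:**
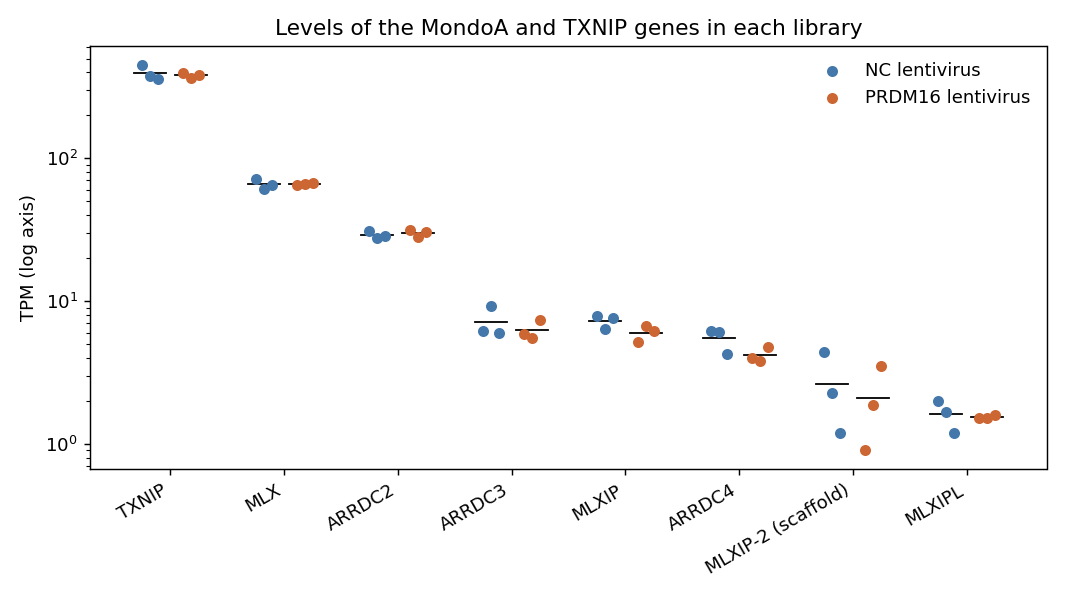
TPM (log axis) of the 8 rows in each library, with 1 point per library, blue for NC and orange for PRDM16 lentivirus, and a bar at each group mean. TXNIP, between 359 and 449 TPM, lies above MLX (60.7 to 71.8 TPM) and ARRDC2 (27.6 to 31.3 TPM), and the points of the 2 groups lie side by side in each gene.

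PRDM16 and NC cells were then compared to ask whether PRDM16 goes with other levels of the axis in high glucose. PRDM16 RNA itself was low in the PRDM16 libraries, at 0.598 ± 0.0422 CPM (SD, n = 3), and the comparison holds for that level only. None of the 7 genes, and none of their 8 rows, passed at an adjusted p under 0.05 in edgeR's quasi-likelihood test, where 0.065% of all tested genes passed (10 of 15381). At an unadjusted p under 0.05 the count was also 0 of 8 rows, against 16% of all tested genes. DESeq2 (0.341% of its genes passed) and limma-voom (0.026% passed) called 0 of them as well, with no adjusted p from DESeq2 for 4 rows. Of the 7 genes, with MLXIP taken on chromosome 12, 4 had a positive and 3 a negative log2 fold change. Their median was 0.07, and that of all tested genes was -0.02. The median turned to -0.08 without NC library 3 and to -0.09 with the trend on length and GC content removed.

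TXNIP, at chr1:145992435-145996579 on the minus strand with 7 exon blocks, rests on 9053 to 18893 counts per library. For comparisons between libraries, CPM scaled by TMM factors was used. TXNIP had 519, 413 and 435 CPM in NC and 529, 471 and 451 CPM in PRDM16 libraries. The groups overlapped: NC library 1 lay above 2 of the PRDM16 libraries. The means were 456 ± 56.3 and 484 ± 40.3 CPM (SD, n = 3 each), a log2 fold change of 0.09 ± 0.12 (SE; adjusted p = 0.704, edgeR). The 95% interval of the fold change ran from 0.891 to 1.27, and changes of TXNIP within these bounds could not be resolved at this spread. The log2 fold change was 0.18 without NC library 1, 0.03 without NC library 2, 0.06 without NC library 3 and 0.02 without PRDM16 library 1, and 0.15 with the length and GC trend removed. On the TPM scale the difference was -0.05 on log2, on which the median of all tested genes was -0.16. Relative to that median TXNIP stood at 0.11.

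ARRDC4, at chr15:97960703-97973833 on the plus strand with 8 exon blocks, had the smallest p of the 8 rows. It had 8.73, 8.12 and 6.38 CPM in NC and 6.61, 6.07 and 6.98 CPM in PRDM16 libraries. NC libraries 1 and 2 lay above all 3 PRDM16 libraries, and NC library 3 lay among them. The means were 7.74 ± 1.22 and 6.55 ± 0.458 CPM, a log2 fold change of -0.24 ± 0.16 (unadjusted p = 0.144, adjusted p = 0.405, edgeR). The interval of the fold ran from 0.673 to 1.06, and the counts of 127 to 292 per library were far below those of TXNIP. A smaller p was found for 35.7% of all tested genes. Relative to the median of all genes, the TPM difference of ARRDC4 was -0.21. The ARRDC4 difference kept its sign under the alternatives that gave it a tested value and on log2 TPM, between -0.37 and -0.10, with a lowest adjusted p of 0.293 (edgeR). DESeq2 gave ARRDC4 no adjusted p. The value was -0.16 without NC library 1 and -0.11 with the length and GC trend removed.

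ARRDC2 lies at chr19:18001124-18014102 on the plus strand with 9 exon blocks. In TMM-scaled CPM it was the only 1 of the 8 rows whose groups did not overlap. Such separation was found in 21% of all tested genes, and in the same direction in 12.2%. ARRDC2 had 31.9, 27.0 and 30.9 CPM in NC and 37.3, 32.6 and 32.0 CPM in PRDM16 libraries. The lowest PRDM16 library, at 32.0 CPM, stood just above the highest NC library, at 31.9 CPM. In TPM the groups of ARRDC2 overlapped, as PRDM16 library 2 (28.2 TPM) lay below NC library 1 (30.9 TPM). The log2 fold change was 0.18 ± 0.12 (fold interval 0.951 to 1.35, adjusted p = 0.412, edgeR). The GC content of ARRDC2, 64.7%, was above that of 95.8% of tested genes. With the trend on length and GC content removed, its log2 fold change was -0.09. Without NC library 2 it was 0.12 and without PRDM16 library 1 it was 0.11. The length and GC trend alone predicted 0.27 for a gene of this length and GC content.

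ARRDC3, at chr5:91368631-91383332 on the minus strand with 8 exon blocks, had 12.03, 17.2 and 12.2 CPM in NC and 13.3, 12.1 and 14.8 CPM in PRDM16 libraries. NC library 2 was the highest of the 6, and the other NC libraries lay below or among the PRDM16 libraries. The log2 fold change was -0.05 ± 0.15 (fold interval 0.782 to 1.20, adjusted p = 0.875, edgeR). Without NC library 2 it was 0.15, without PRDM16 library 2 it was 0.03, and with the length and GC trend removed it was 0.16. ARRDC3 had the lowest GC content of the 7 genes (41.2%), and the trend predicted -0.19 for it.

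**Figure D2:**
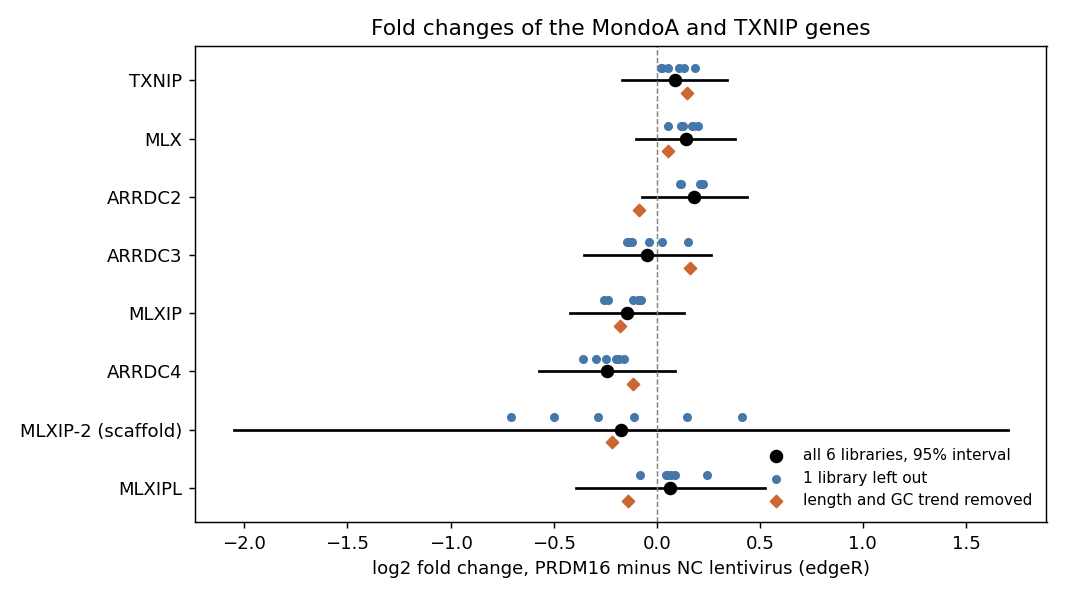
Log2 fold change (PRDM16 minus NC lentivirus, edgeR) of the 8 rows: black points with 95% intervals use all 6 libraries, blue points leave out 1 library each, and orange diamonds have the length and GC trend removed. All 8 intervals include 0, and that of the MLXIP scaffold listing is the widest.

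The factors themselves gave the following values. MLX, at chr17:42567100-42573203 on the plus strand with 8 exon blocks, had 63.4, 50.7 and 60.4 CPM in NC and 66.2, 65.2 and 60.9 CPM in PRDM16 libraries. PRDM16 library 3 lay between the NC libraries, so the groups overlapped, and NC library 2 was lowest. The log2 fold change was 0.14 ± 0.12 (fold interval 0.933 to 1.30, adjusted p = 0.498, edgeR). It was 0.06 without NC library 2 and 0.05 with the length and GC trend removed. MLX shares 775 exon bases, 30.7% of its length, with PSMC3IP on the opposite strand. Whether the counting used strand is not stated in the sources used here, so reads of the 2 genes in that stretch may not be told apart. PSMC3IP had 473 to 1057 counts and a log2 fold change of 0.03 ± 0.12 (adjusted p = 0.898, edgeR). The span of ARRDC3 overlaps that of the antisense gene ARRDC3-AS1, but the 2 share 0 exon bases.

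MLXIP, at chr12:122078744-122147344 on the plus strand with 19 exon blocks, had 23.8, 18.5 and 24.1 CPM in NC and 18.3, 22.5 and 19.2 CPM in PRDM16 libraries. The groups overlapped: NC library 2 lay among the PRDM16 libraries, and the other NC libraries lay above them. The log2 fold change was -0.14 ± 0.13 (fold interval 0.747 to 1.10, adjusted p = 0.545, edgeR). It was -0.25 without NC library 2 and -0.24 without PRDM16 library 2, and -0.09 without NC library 1, -0.08 without NC library 3 and -0.08 without PRDM16 library 1. MLXIPL, at chr7:73593201-73624522 on the minus strand with 18 exon blocks, had 2.87, 2.26 and 1.78 CPM in NC and 2.50, 2.41 and 2.34 CPM in PRDM16 libraries. The 3 PRDM16 values lay inside the NC range. The log2 fold change of MLXIPL was 0.07 ± 0.22 (fold interval 0.762 to 1.44, adjusted p = 0.879, edgeR), and it was -0.08 without NC library 3 and -0.14 with the length and GC trend removed. At these counts, changes of MLXIPL inside its interval were not detectable.

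**Figure D3:**
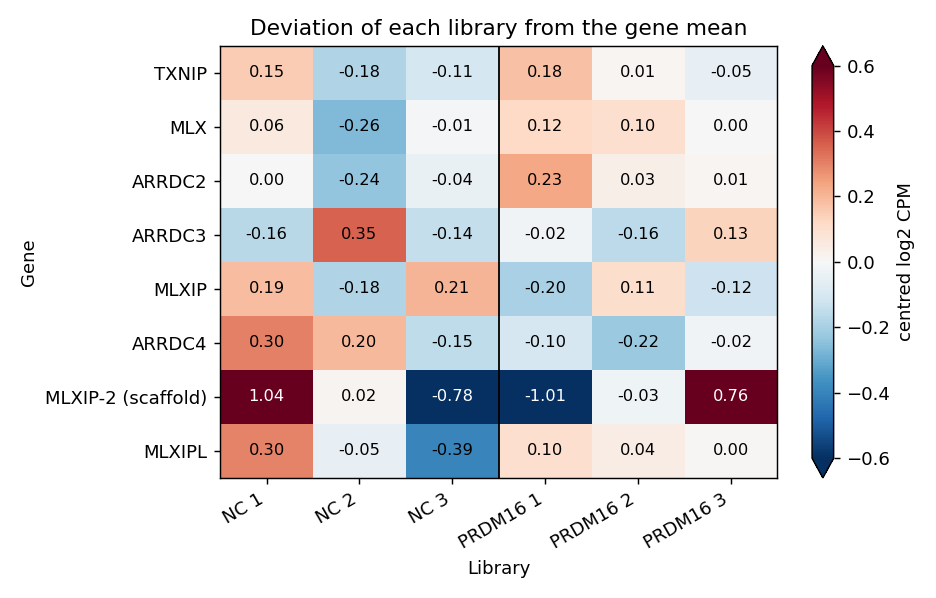
Centred log2 CPM (each value minus the mean of its gene over the 6 libraries) for the 8 rows, with NC libraries left and PRDM16 libraries right of the line; red is above and blue below the mean. NC library 2 is the lowest of the 6 for TXNIP (-0.18), MLX (-0.26) and ARRDC2 (-0.24) and the highest for ARRDC3 (0.35).

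The genes did not share 1 pattern over the libraries. The spread from the lowest to the highest library was 0.36 on log2 for TXNIP, 0.38 for MLX, 0.40 for MLXIP, 0.47 for ARRDC2, 0.52 for ARRDC4 and for ARRDC3, and 0.69 for MLXIPL. In NC library 2, TXNIP, MLX and ARRDC2 were at their lowest, while ARRDC3 was at its highest and ARRDC4 was 0.20 above its mean. In that library the length and GC trend gave -0.17 for MLX, -0.27 for ARRDC2, 0.31 for ARRDC3 and 0.21 for ARRDC4, in the direction of their values. For TXNIP the trend there was 0.09, opposite in sign to its value of -0.18. MLXIPL had a trend of -0.23 and a value of only -0.05. MLXIP on chromosome 12 had a trend of -0.09 and a value of -0.18. The scaffold listing of MLXIP had a trend of -0.12 and a value of 0.02, opposite in sign.

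MLXIP is listed at 2 places, on chromosome 12 and on a scaffold outside the chromosomes, and its reads were divided between them unevenly from library to library. The scaffold took 29.9%, 21.3% and 10.7% of the MLXIP counts in NC libraries 1 to 3 and 11.8%, 17.7% and 30.4% in PRDM16 libraries 1 to 3. The 95% Wilson intervals, which cover counting error only, were 8.37% to 13.5% for the lowest share and 27.8% to 33.1% for the highest. Both groups thus held low and high shares. The scaffold listing alone had 10.2, 5.00 and 2.88 CPM in NC and 2.45, 4.85 and 8.39 CPM in PRDM16 libraries. Its log2 fold change was -0.17 ± 0.69 (fold interval 0.241 to 3.26, adjusted p = 0.904, edgeR), and it was 0.41 without NC library 1. Whether reads of 1 place were counted at the other was not tested, so the value of either place alone is uncertain.

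With both places summed, MLXIP had 34.0, 23.5 and 27.0 CPM in NC and 20.7, 27.4 and 27.6 CPM in PRDM16 libraries. The summed values overlapped more than those on chromosome 12, and their log2 fold change was -0.15 ± 0.14 (adjusted p = 0.560, edgeR). The width of the MLXIP share, 19.7 percentage points from the lowest to the highest library, was not extreme. Of 78 gene names with 2 places, at least 100 counts in every library and over 5% of counts at the lesser place on average, 27 had a wider range, and the median range was 14.99 points. BCL7A, a neighbour on the same scaffold picked after its values were seen, had 0 to 2 counts there and 225 to 531 counts on chromosome 12.

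**Figure D4:**
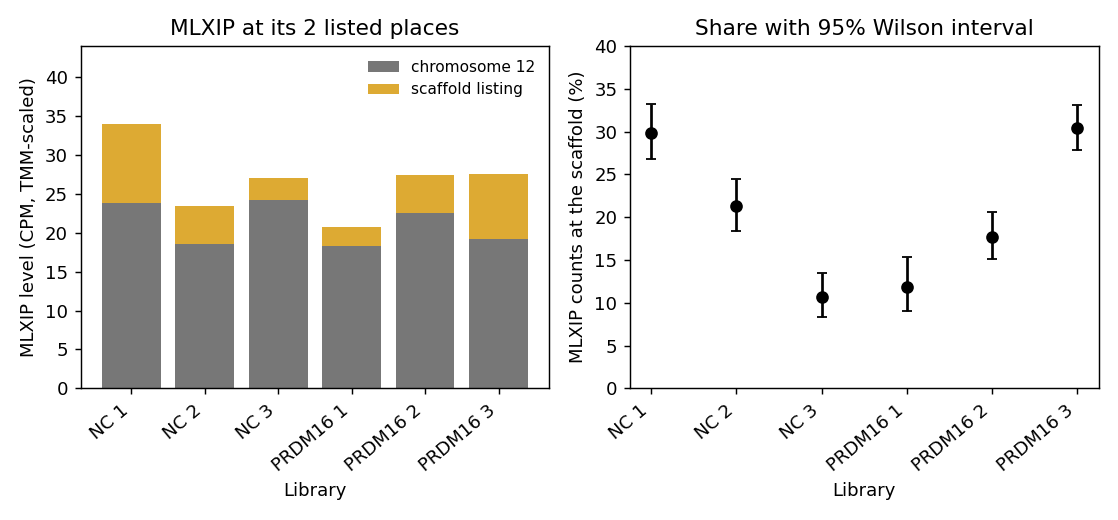
MLXIP counts at its 2 listed places in each library: left, stacked TMM-scaled CPM on chromosome 12 (grey) and on the scaffold (yellow); right, the scaffold's percent of MLXIP counts with 95% Wilson intervals. The share lies near 30% in NC library 1 (29.9%) and PRDM16 library 3 (30.4%) and near its lowest in NC library 3 (10.7%) and PRDM16 library 1 (11.8%).

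Ratios of TPM within a library describe the balance of the axis without regard to library scaling. A set of 7 ratios was taken, chosen after the files had been seen. With 3 against 3 libraries the exact two-sided permutation test cannot give a p under 0.1. That is above the threshold for passing used here, so no ratio could pass, before or after adjustment. The p-values of the ratios are therefore a description only. The ratio of TXNIP to ARRDC4, the pair of classic targets, was 73.2, 62.5 and 83.7 in NC and 98.4, 95.5 and 79.6 in PRDM16 libraries. The groups overlapped, as PRDM16 library 3 lay below NC library 3 (exact permutation p = 0.2, adjusted 0.7). The ratio of MLX to chromosome 12 MLXIP was 9.16, 9.44 and 8.62 in NC and 12.5, 9.96 and 10.9 in PRDM16 libraries. These groups did not overlap, and the exact permutation p of 0.1 is the smallest that 3 against 3 allow (adjusted 0.7). With both MLXIP places counted, the ratio was 5.87, 6.97 and 7.45 in NC and 10.6, 7.77 and 6.94 in PRDM16 libraries, and the groups overlapped (exact permutation p = 0.3, adjusted 0.7). The separation for chromosome 12 alone was thus not present once the scaffold reads were included.

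The remaining ratios also overlapped between groups. TXNIP to TXN, the thioredoxin that TXNIP binds, lay between 0.449 and 0.669 (exact permutation p = 0.9, adjusted 0.9). TXN itself had 740 ± 53.2 TPM, so that TXNIP messenger RNA was below that of its partner in 6 of 6 libraries. MLXIP to MLXIPL lay between 3.43 and 6.38 (exact permutation p = 0.6, adjusted 0.7), with MLXIP the higher of the Mondo factors in every library. ARRDC2 to ARRDC3 lay between 2.97 and 5.32 (exact permutation p = 0.5, adjusted 0.7), and TXNIP to ARRDC2 between 12.6 and 14.6 (exact permutation p = 0.4, adjusted 0.7).

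For TXNIP and for ARRDC4 the genes with the most similar course over the 6 libraries were sought among 10840 genes with a mean of at least 5 CPM. Likeness was the root mean square (RMS) difference of centred log2 CPM. The 5 nearest to TXNIP were ZNF655 (0.0217), KDM6B (0.0273), WHRN (0.0292), LTO1 (0.0306) and DPH7 (0.0317), against a median of 0.189 over all genes compared. Among the axis genes, ARRDC2 ranked 509 (0.0777) and MLX ranked 592 (0.0798) by nearness to TXNIP. ARRDC4 ranked 6592 (0.223), farther from TXNIP than the median gene. The 5 nearest to ARRDC4 were TRAM2-AS1 (0.0429), DDX52-2 (0.0520; a further listing of DDX52), CHAC2 (0.0549), ZNF770 (0.0569) and CNST (0.0577), against a median of 0.242. TXNIP ranked 4431 by nearness to ARRDC4. At the same distance of 0.223 it was nearer to ARRDC4 than the median gene, so the 2 comparisons with a median differ. These distances are over 6 libraries that share depth and GC trends, and are a description only.

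The genes around the axis were read from 7 lists with 69 genes, of which 58 were tested. None passed in edgeR, DESeq2 or limma-voom, and at an unadjusted p under 0.05 in edgeR the count was 8 of 58 (13.8%, against 16% of all tested genes), 4 higher (9.23% of all tested genes) and 4 lower (6.76% of all). The MAX and MLX network partners include some that compete with Mondo factors for partners or E-boxes. Of its 9 tested genes, 4 had a positive and 5 a negative log2 fold change (median -0.08, or -0.02 with the length and GC trend removed). MXD4, a repressor that pairs with MAX, had 32.2 ± 3.21 CPM in NC and 40.1 ± 3.31 CPM in PRDM16 libraries, a log2 fold change of 0.32 ± 0.12 (adjusted p = 0.298, edgeR), or 0.12 with the trend removed. MGA, which also pairs with MAX, had 41.7 ± 9.87 and 33.1 ± 3.86 CPM, at -0.34 ± 0.15 (adjusted p = 0.302, edgeR). Without NC library 2 the value of MGA was -0.12, and with the trend removed it was -0.09. MXD3 had 9.53 ± 1.32 and 11.4 ± 0.0959 CPM (log2 fold change 0.26 ± 0.14), and -0.02 with the trend removed.

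Of 13 other genes known as targets of carbohydrate response elements, 9 were tested, 4 with a positive and 5 with a negative log2 fold change (median -0.04). TKFC, which phosphorylates sugars of the fructose pathway, had 33.5 ± 0.973 CPM in NC and 40.1 ± 4.55 CPM in PRDM16 libraries (0.26 ± 0.12, adjusted p = 0.311, edgeR), and 0.17 with the length and GC trend removed. FASN, the fatty acid synthase, had 287 ± 48.5 and 341 ± 33.0 CPM (0.25 ± 0.13, adjusted p = 0.322, edgeR), and 0.07 with the trend removed. GPD1, a low gene, had 0.697 ± 0.180 and 0.455 ± 0.0547 CPM (-0.62 ± 0.35, adjusted p = 0.341, edgeR), and -0.36 without NC library 2. The known targets thus had values on both sides of 0, as TXNIP and ARRDC4 did, and no call.

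Glucose entry and phosphorylation feed the signal that Mondo factors read. Of its 8 tested genes, 3 had a positive and 5 a negative log2 fold change (median -0.06). This median was 0.05 with the length and GC trend removed and -0.02 without NC library 1. SLC2A1 (GLUT1), the transporter that TXNIP restrains, was at 319 ± 12.8 TPM, with 367 ± 28.4 CPM in NC and 426 ± 18.8 CPM in PRDM16 libraries (0.22 ± 0.12, adjusted p = 0.330, edgeR), and 0.11 with the trend removed. HK2, an inducible hexokinase, had 81.2 ± 8.55 and 69.8 ± 6.31 CPM (-0.22 ± 0.12, adjusted p = 0.332, edgeR). HKDC1, a further hexokinase family member, had 74.4 ± 7.60 and 69.2 ± 2.71 CPM (-0.10 ± 0.11, adjusted p = 0.612, edgeR), and -0.18 without NC library 2.

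In the list of the thioredoxin system and TXNIP partners, 4 of 7 genes had a positive and 3 a negative log2 fold change, and the median of 0.15 became 0.01 with the length and GC trend removed. TXN2, the mitochondrial thioredoxin, had 99.3 ± 5.14 CPM in NC and 114 ± 11.9 CPM in PRDM16 libraries (0.20 ± 0.11, adjusted p = 0.353, edgeR), and 0.02 with the trend removed. TXNRD1, the cytosolic thioredoxin reductase, had 334 ± 49.9 and 289 ± 14.7 CPM (-0.21 ± 0.12, adjusted p = 0.355, edgeR), and -0.12 with the trend removed and -0.11 without NC library 2. DDIT4, a stress-induced inhibitor of mTORC1 that binds TXNIP, had 177 ± 8.59 and 202 ± 23.3 CPM (0.19 ± 0.12, adjusted p = 0.360, edgeR), and -0.14 with the trend removed.

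Ubiquitin ligases of the NEDD4 family bind alpha-arrestins through their WW domains. Of these 9 genes, 2 had a positive and 7 a negative log2 fold change (median -0.09, or 0.04 with the length and GC trend removed). NEDD4 had 41.2 ± 8.90 CPM in NC and 33.1 ± 3.67 CPM in PRDM16 libraries (-0.32 ± 0.14, adjusted p = 0.303, edgeR), and -0.12 without NC library 2 and -0.05 with the trend removed. SMURF2 had 175 ± 34.2 and 150 ± 16.2 CPM, and its log2 fold change of -0.23 ± 0.13 became -0.07 without that library and -0.02 with the trend removed. WWP1 had 48.8 ± 9.10 and 42.2 ± 2.78 CPM, and its -0.21 ± 0.13 became -0.04 and 0.01.

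Of 13 other regulators of TXNIP, 6 had a positive and 7 a negative log2 fold change (median -0.07). This median was 0.01 with the length and GC trend removed and -0.01 without NC library 3. PRKAA2, a catalytic subunit of the kinase AMPK that marks TXNIP for breakdown, had 46.5 ± 10.4 CPM in NC and 35.6 ± 4.77 CPM in PRDM16 libraries (-0.39 ± 0.15, adjusted p = 0.298, edgeR). Its value was -0.18 without NC library 2 and -0.07 with the length and GC trend removed. FOXO3, a transcription factor, had 63.5 ± 8.09 and 52.9 ± 0.930 CPM (-0.27 ± 0.12, adjusted p = 0.301, edgeR), and -0.12 with the trend removed and -0.17 without NC library 2. AKT1, a kinase of insulin signalling, had 281 ± 15.9 and 334 ± 17.9 CPM (0.25 ± 0.11, adjusted p = 0.303, edgeR), and 0.11 with the trend removed. The groups did not overlap for 5 of the 13 genes, 2 higher and 3 lower, where 21% of all tested genes showed such separation. They were these 3, and AKT2 (higher) and NFYB (lower), which are named after their values were seen. HSF1, the heat shock factor, was read only at the place with more counts, and reads listed elsewhere were not added. At that place HSF1 varied from 5.59 to 62.5 CPM between libraries of both groups. Its log2 fold change of 1.14 ± 1.17 stands far right in the plot of the lists, and HSF1 is named after its value was seen.

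Among the other arrestins, ARRDC1, the alpha-arrestin of plasma membrane vesicles, had 61.0 ± 5.35 CPM in NC and 75.3 ± 3.48 CPM in PRDM16 libraries. Its groups did not overlap, as was found in this direction for 12.2% of all tested genes, and its log2 fold change was 0.30 ± 0.11 (adjusted p = 0.297, edgeR), or 0.11 with the length and GC trend removed. The beta-arrestin ARRB2 had 102 ± 15.3 and 117 ± 11.6 CPM (0.20 ± 0.12, adjusted p = 0.380, edgeR), and 0.01 with the trend removed and 0.10 without NC library 2. ARRB1 had a log2 fold change of -0.02 ± 0.13.

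**Figure D5:**
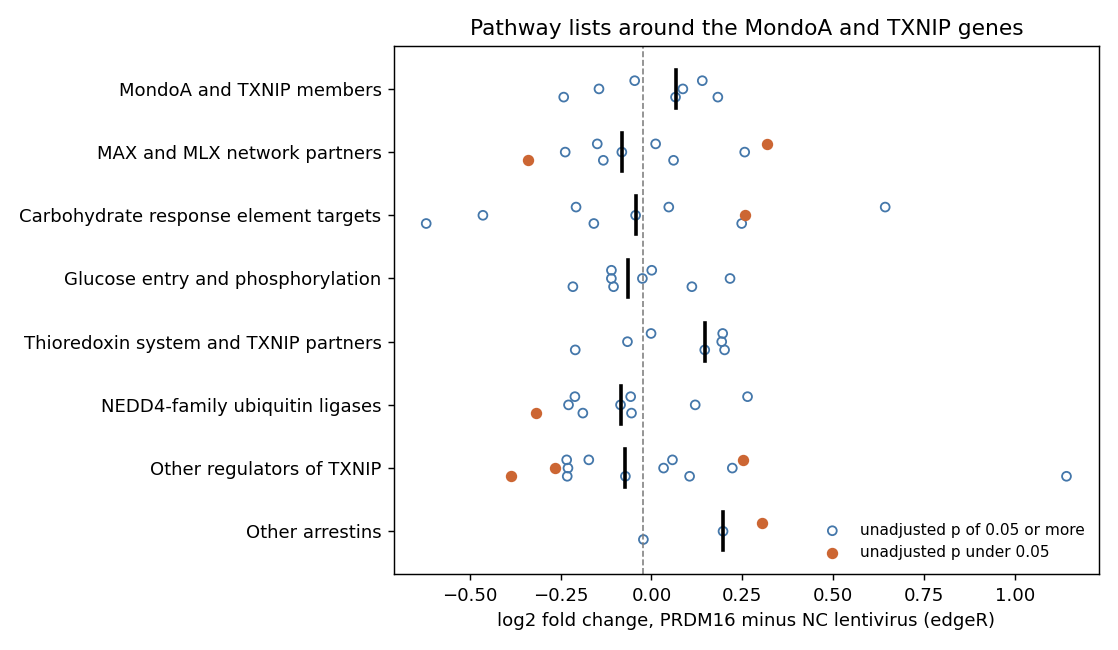
Log2 fold change (PRDM16 minus NC lentivirus, edgeR) of each tested gene of the 7 axis genes and the 7 lists around them, 1 point per gene, filled where the unadjusted p is under 0.05; bars are list medians and the dashed line is the median of all tested genes (-0.02). No gene passed after adjustment, and the point at 1.14 is HSF1.

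The promoter motifs were set beside the fold changes of all tested genes with a RefSeq promoter. Of 11532 such genes, 46.3% had a positive log2 fold change (median -0.03). Of the 1412 with an E-box, which include MLX and ARRDC4, 706 were positive (median 0.00) and 1 passed in edgeR, against 4 of all 11532. A direct or inverted pair was present in 18 tested genes, TXNIP among them. Of these 10 were positive (median 0.07) and 0 passed.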

How the data were processed

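RNA was extracted with Trizol, captured by poly(A) and reverse transcribed from random hexamers, per the labels' protocols. Per the file headers, the tables that the authors deposited, 1 per library, give raw counts, FPKM and TPM. The submitters' processing notes name the build hg38. No aligner, counter, strand setting or annotation release is given in the sources used here. The broken lines of 7 genes, none of them described here, were rejoined. There are 4252 listed genes off the chromosomes and 2008 names listed at more than 1 place.

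The 3 NC and 3 PRDM16 libraries, grouped by title, were compared in edgeR 4.0.16 by its quasi-likelihood test (R 4.3.3; robust, TMM factors, minimum count 10, minimum total 15; common biological coefficient of variation 0.146). Passing means an adjusted p (Benjamini-Hochberg) under 0.05 over all 15381 tested genes. Standard errors follow from each fold change and its F statistic. DESeq2 1.42.0 and limma-voom (limma 3.58.1), other scaling and filtering, a replicate block, left-out libraries, summed places and offsets for length and GC content (splines with 5 degrees of freedom; GC content known for 90.3% of tested genes) were alternatives. The script was tested on simulated data. Library totals give the depth stated in the report, and Wilson intervals are at 95%. The permutation test of PRDM16 used log2 of CPM plus 0.1. No pair of libraries agreed within sampling noise. Promoters came from RefSeq tables.

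The members and lists were chosen with earlier results of these data known. Named are the 7 genes, PRDM16, up to 3 genes per list with the smallest p, and the 5 nearest to TXNIP and to ARRDC4. Where a list gene has 2 places, the place with more counts was read. Of the markers only some are named; protein sequences were not used here.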

Additional observations from a re-analysis of the deposited data

How the results depend on the processing

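The 8 rows of the axis gave 115 log2 fold changes under 15 alternatives. Of these 102 kept their direction, 13 turned and 0 passed, with a lowest adjusted p of 0.253 (edgeR, ARRDC2 without NC library 1). The differences on log2 TPM, 1 for each of the 8 rows, came without a p and could not pass. DESeq2 gave 4 rows no adjusted p. ARRDC3 turned to 0.15 without NC library 2, 0.03 without PRDM16 library 2, and 0.16 with the length and GC offsets, with or without the replicate block. ARRDC2 turned to -0.085 with the offsets and -0.086 with offsets and block. MLXIPL turned to -0.079 without NC library 3, -0.14 with the offsets, -0.12 with offsets and block, and -0.041 on log2 TPM, an alternative added after seeing the data. TXNIP turned to -0.048 on log2 TPM. The median of all tested genes on log2 TPM was -0.16, and relative to it TXNIP stood at 0.11 and MLXIPL at 0.12, both positive as in edgeR. The scaffold listing of MLXIP turned to 0.41 without NC library 1 and 0.15 without PRDM16 library 1. With 1 library left out, ARRDC3 ranged from -0.15 to 0.15, the MLXIP scaffold listing from -0.70 to 0.41 and MLXIPL from -0.079 to 0.24. The cause was not tested.

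Over all tested genes 10 passed in edgeR, 28 in DESeq2, 4 in limma-voom, 107 with no filter on low counts, 5 with the offsets, 4 with offsets and block, and 18 with places summed. Leaving out 1 library gave 7 to 173, the highest without NC library 3 and 59 without PRDM16 library 2. The members passing stayed at 0 in each. The fitted log2 fold change of PRDM16, which depends on the prior count and is no bound, was 7.02. It was 6.98 with offsets and block (adjusted p = 0.202, edgeR) and 6.89 to 7.12 with 1 library left out. In limma-voom it was lower, at 4.88 (adjusted p = 3.0e-04, limma-voom), and DESeq2 gave PRDM16 no adjusted p. Same-numbered libraries of the 2 groups had correlations of deviations of 0.09, -0.10 and -0.12, and those with different numbers reached 0.19. These values, centred within groups of 3, cannot show whether equal numbers stand for a shared culture or day. The replicate block gave 10 genes and 0 of the 8 rows. Of 56 list medians under alternatives, 11 moved beyond the spread between libraries. MLXIPL rests on few counts, 37 to 98 per library. The widest interval of the 8 rows was that of the MLXIP scaffold listing (SE 0.69, against 0.22 for MLXIPL).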
